A study of Mus musculus with 9 samples.

Results

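Interneurons of the embryonic mouse cortex, sorted for a GFP reporter of Gad1, were compared with primary mouse embryonic fibroblasts over all genes. The comparison used 6 of the 9 libraries of the series, 3 of interneurons (GAD67, replicates 7, 8 and 9) and 3 of fibroblasts (MEF, replicates 1, 2 and 3), chosen by their labelled column names. Of 37224 genes in the table, 18085 had enough counts to be tested. The study set cells converted from fibroblasts beside their starting cells and beside the neurons they were meant to resemble; here the fibroblasts and the sorted neurons are compared with each other.

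The GAD67 cells were interneurons of C57BL/6 embryos at E18.5 (days of gestation), used as primary cells, dissociated with trypsin and sorted for GFP. The MEF cells were unsorted fibroblasts of C57BL/6 embryos at E13.5, at passage P0, detached with trypsin. Their label also mentions a shift to a medium for neuronal induction without saying whether RNA was taken before it. Cell type, embryonic age, sorting, and growth in a dish against isolation from tissue all differ between the groups, so their shares in any difference cannot be told apart. Nothing in the labels tells if the replicates came from different cultures or animals, and p-values therefore reflect only how these samples vary, which for the fibroblasts may be technical variation. The reporter sort selects on Gad1, which makes that gene a check of the labels and not a finding.

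Cortical interneurons are born in the ganglionic eminences of the ventral forebrain, where Dlx factors start the GABAergic programme, and they migrate tangentially into the cortex. Cells of the medial eminence, set by Nkx2-1 and then Lhx6, give rise to somatostatin and parvalbumin interneurons, while cells of the caudal eminence, marked by Prox1, Sp8 and Nr2f2, give rise to vasoactive intestinal peptide and many reelin interneurons. Fibroblasts are mesenchymal cells that secrete and pull on collagen matrix, keep a Hox code of their place in the body, and hold the repressor REST, which keeps neuronal genes silent outside the nervous system.

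Levels are normalised CPM (read counts scaled to library size), given in the order of the replicates. Differences are log2 fold changes of GAD67 over MEF with their standard error (SE) from edgeR, and a gene is called higher or lower where the Benjamini-Hochberg adjusted p over all genes tested was under 0.05. Among named genes called with a log2 difference of at least 1 in size, the largest adjusted p was 0.00767, and p-values are printed for the genes the results turn on. The libraries held between 30979426 and 38975523 counts each. For a gene with 0 counts in 1 library, up to 3 counts remain possible, which is 0.0766 to 0.11 CPM. A gene with 0 counts in a whole group is given as "at least" a fold, computed with 3 counts in that group. A gene with 1 to 3 counts is given as a ratio with its exact 95% interval. Both cover counting error only.

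Fewer genes spread widely between the fibroblast libraries than between the interneuron libraries, although not every interneuron pair was further apart. The Pearson correlation of log2 CPM was 0.993 to 0.994 for fibroblast pairs. For the interneurons it was 0.995 for replicates 7 and 8, 0.993 for 7 and 9, and 0.989 for 8 and 9. Among genes with at least 200 counts in a library, 12 of 11406 (0.105%) spanned a 2-fold range or more between the fibroblast libraries and 136 of 11049 (1.23%) between the interneuron libraries. Of those 136 genes, 98 were highest in GAD67 replicate 8 and 98 were lowest in GAD67 replicate 9, so these libraries stood at opposite ends. Sst, Nkx2-1, Npy and Fos were among the genes that were low in replicate 9, and Kdr, Rgs5 and Cldn5, genes of blood vessels, were high in it. The widest range was that of Xist, transcribed from the inactive X chromosome of female cells, at 415, 3.76 and 1043 CPM in the interneurons, a gap that repeats of 1 RNA sample would not give. In the fibroblasts Xist stood at 404, 387 and 189 CPM. The part of the mix of sexes in the results was not tested. Without replicate 9 edgeR called 15949 genes, and without replicate 8 it called 15676.

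The label check held in every library. Gad1, which encodes the GABA-synthesising enzyme GAD67, stood at 0.622, 0.526 and 0.483 CPM in the fibroblasts and at 752, 717 and 766 CPM in the interneurons.

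Over all genes tested, 15721 (86.9%) were called, 7802 (43.1%) higher and 7919 (43.8%) lower in the interneurons. At least 16-fold higher were 1267 genes (7.01%), and at least 16-fold lower were 2205 (12.2%). For 15741 genes (87.0%) the libraries of the groups did not overlap, so a lack of overlap by itself says little. With nearly every gene moving, a call by itself says little, and the counts below are read against these shares and the sizes against a median log2 difference of 0.00. Many listed genes passed the low-count filter through the group where they are high and had to differ, so the counts describe the lists and support nothing. In these bulk samples fewer cells of a type and less RNA per cell cannot be told apart.

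The genes that make, load and take up GABA were higher in the interneurons, all 8 that passed the filter, with a median log2 difference of 9.12 and summed levels of 179 to 182 CPM against 2527 to 2681 CPM. Gad1, on which the cells were sorted, is among the 8 and enters the median and the sum, with an interneuron mean of 745 CPM. Gad2, the second GABA-synthesising enzyme, stood at 0.220, 0.0329 and 0.151 CPM in the fibroblasts and at 517, 478 and 547 CPM in the interneurons. Slc32a1, which loads GABA into vesicles, stood at 0.0366, 0.0329 and 0.0604 against 189.6, 184 and 183 CPM. The groups were separated by more than 3 orders of magnitude and each set of replicates lay close together. For Gad2 the log2 difference was 11.89 (SE 0.17, adjusted p = 2.85e-15) and for Slc32a1 it was 11.93 (SE 0.15, adjusted p = 1.1e-15). Per kilobase of annotated exon length the interneurons held 87.5 CPM per kb of Gad2 and 66.4 of Slc32a1. This length, used for all values per kilobase, is the deposited exon length of the gene and not that of the transcript in these cells. Ranks between genes therefore depend on the annotation. Members that many cells use moved little: the amino acid transporter Slc38a1 was higher by 1.12 and the GABA-degrading Aldh5a1 by 1.27 on the log2 scale.

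**Figure D1:**
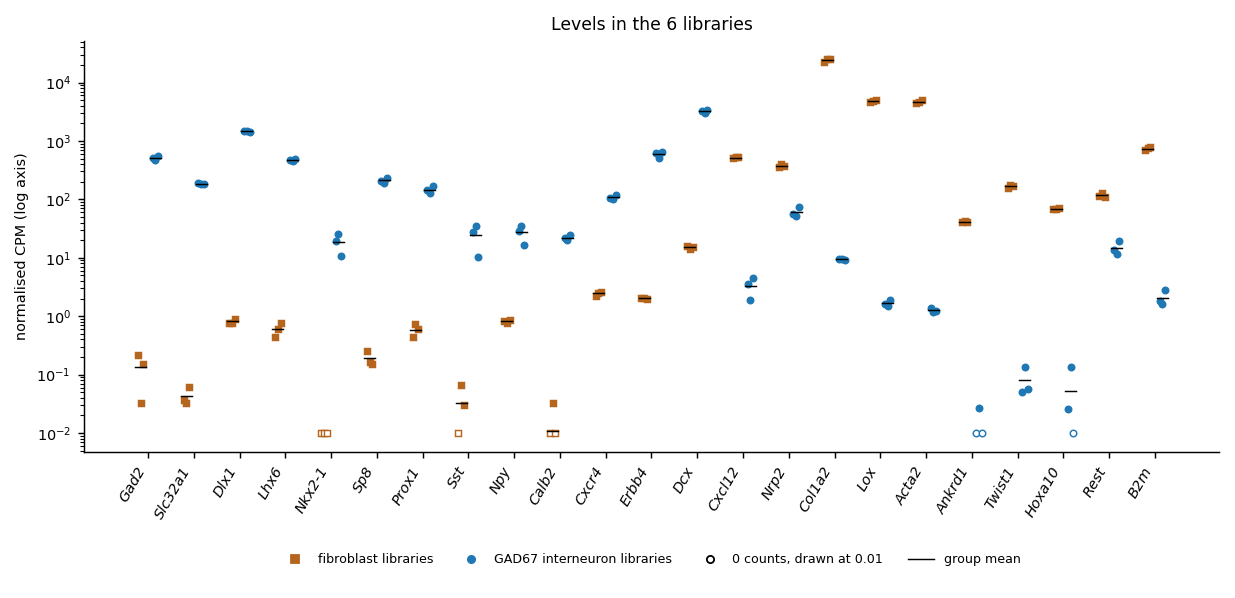
Normalised CPM of 23 genes on a log axis in each of the 3 fibroblast libraries (squares) and 3 interneuron libraries (circles); bars are group means and open symbols at 0.01 stand for 0 counts. The groups do not overlap for any of these genes, as for 87.0% of all genes tested. Among the drawn genes above 1 CPM in the interneurons, these libraries spread most for Nkx2-1, Sst, Npy and Cxcl12.

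Transcription factors of the ventral forebrain were higher in 12 of 13 cases, 11 of them at least 16-fold, with a median log2 difference of 8.96 that becomes 7.41 with the gene absent from fibroblasts put at its bound. Dlx1, which starts the GABAergic programme, stood at 0.769, 0.757 and 0.906 CPM in the fibroblasts and at 1497, 1508 and 1441 CPM in the interneurons (log2 difference 10.82, SE 0.10, adjusted p = 3.83e-16). It was low in all fibroblast and high in all interneuron libraries. Sp9 was 827-fold higher and Six3 was 2715-fold higher. Per kilobase the order among Dlx genes in the interneurons was Dlx1 (275 CPM per kb), Dlx2 (187), Dlx5 (151) and Dlx6 (27.9). Fibroblasts were not devoid of the family, with 4.97 ± 0.333 CPM of Dlx2 (SD, n = 3) and 1.87 ± 0.111 CPM of Dlx5 (SD, n = 3). Dlx3, which is outside the list, stood at 0.256, 0.197 and 0.181 CPM in the fibroblasts with no count in the interneurons, at least 7.92-fold lower, and was named after its values were seen. The long noncoding RNAs Dlx6os1 (2124-fold higher) and Dlx1as (709-fold higher) lie on the opposite strand to Dlx genes. The strand setting of the counting is not given in the sources used here, so their values are uncertain. Gsx1, a factor of dividing progenitors, was the member that did not pass (log2 difference 0.77, SE 0.69, adjusted p = 0.309), whereas its relative Gsx2 was absent from the fibroblasts and at 1.63, 1.99 and 1.84 CPM in the interneurons, at least 55.1-fold higher.

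All 9 measured factors of the medial eminence were higher, with a median of 2.89, and so were all 12 genes of the caudal eminence, with a median of 5.55. Lhx6, which keeps medial cells on the interneuron path, stood at 0.439, 0.592 and 0.755 CPM in the fibroblasts and at 466, 445 and 482 CPM in the interneurons (log2 difference 9.58, SE 0.13, adjusted p = 1.43e-15). Nkx2-1, which acts before Lhx6 and is shut off in cortical interneurons, had no count in any fibroblast library and stood at 19.6, 25.1 and 10.9 CPM in the interneurons, at least 561-fold higher (adjusted p = 2.77e-08). Per kilobase Nkx2-1 stood at 6.49 and Lhx6 at 95.5 CPM per kb in the interneurons. Lhx8, which marks the cholinergic branch of the same lineage, reached only 1.76, 1.80 and 1.27 CPM against 0.586, 0.230 and 0.694 CPM in fibroblasts (log2 difference 1.67, adjusted p = 0.000510). The small median of the medial list came from factors that fibroblasts also used, among them Maf (2.30), Satb1 (2.89) and Zfhx3 (0.77), while Cux2 differed by 8.59.

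Among caudal genes, Sp8 stood at 0.256, 0.164 and 0.151 CPM in the fibroblasts and at 208, 194 and 236 CPM in the interneurons, a 1114-fold difference. Prox1, which is needed for the maturation of caudal cells, stood at 0.439, 0.724 and 0.604 against 147, 128 and 167 CPM, a 246-fold difference. Adarb2, an RNA-editing relative that marks caudal interneurons, was 3277-fold higher (log2 difference 11.68, SE 0.18). Libraries of each group stayed together for all of these. The serotonin receptor Htr3a, which defines caudal interneurons in the adult, differed by 6.51 and the cannabinoid receptor Cnr1 by 6.33. By contrast Nr2f2, which fibroblasts also express, differed by 1.56, from 38.8, 40.4 and 41.1 CPM to 112, 98.8 and 143 CPM, and Nfix by 1.03.

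Markers of neighbouring GABAergic neurons were present as well, 15 of 17 higher and 1 lower with a median of 2.42. Meis2, which marks striatal and olfactory bulb neurons, stood at 69.3, 75.6 and 70.8 CPM in the fibroblasts and at 1071, 1097 and 1049 CPM in the interneurons, and Pax6 at 0.0366, 0.132 and 0.0604 against 56.5, 54.1 and 60.6 CPM. The dopamine receptor Drd2 had 3 counts in the fibroblasts and 39.7, 44.8 and 31.9 CPM in the interneurons (ratio 1179.9, 95% interval 403 to 5724), whereas Drd1 reached 4.09, 4.08 and 4.04 CPM. Isl1 was 36.0-fold higher. The part of other GABAergic neurons in the results was not tested. Penk, the enkephalin precursor, went the other way, at 158, 170.1 and 176 CPM in the fibroblasts and 8.76, 11.7 and 6.18 CPM in the interneurons (log2 difference -4.24, SE 0.17).

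The peptides and calcium-binding proteins that sort adult interneurons into classes were called less uniformly, with 12 of 15 measured members higher, 2 lower and 1 not passing. Sst, encoding somatostatin, had 3 counts in all fibroblast libraries together and stood at 28, 34.9 and 10.2 CPM in the interneurons (ratio 748, 95% interval 256 to 3628, adjusted p = 3.26e-08). Npy stood at 0.842, 0.757 and 0.876 against 29.0, 35.6 and 16.6 CPM, a 32.7-fold difference (adjusted p = 1.87e-09). Calretinin, Calb2, had 1 count in the fibroblasts and 21.9, 19.8 and 24.9 CPM in the interneurons (ratio 2012, 95% interval 361 to 79488). Sst and Npy were lowest in GAD67 replicate 9, and Calb2 was highest in it. Calbindin, Calb1, was 227-fold higher, and the synaptic ligand Nxph1 was 157-fold higher at 102, 109.8 and 91.4 CPM. Per kilobase the interneuron levels ran from 47.8 for Npy and 40.7 for Sst to 15.5 for Calb2 and 4.81 CPM per kb for Calb1.

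Late class markers were scarcely seen. Vip had no count in the fibroblasts and 0.179, 0.239 and 0.0282 CPM in the interneurons, too few to be tested. Pvalb, parvalbumin, had 1 count in the fibroblasts and 0 in the interneurons, and Lamp5 reached at most 0.212 CPM. Cck was called higher but reached only 3.40, 2.41 and 2.71 CPM. Reelin, Reln, rose 6.65-fold, from 6.44, 6.55 and 5.10 CPM to 44.4, 48.8 and 26.6 CPM. The lower members were Ndnf, a marker of layer 1 interneurons, at 57.0, 69.4 and 66.8 CPM in the fibroblasts and 1.66, 1.25 and 2.06 CPM in the interneurons (log2 difference -5.28), and Chodl (-1.72). Summed over the list, including members too low to be tested, the interneurons held 207 to 296 CPM.

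Genes of tangential migration were higher in 16 of 20 cases and lower in 4, with a median of 2.43. Dcx, the microtubule protein of migrating neurons, stood at 16, 13.9 and 15.5 CPM in the fibroblasts and at 3253, 3043 and 3347 CPM in the interneurons (log2 difference 7.73, SE 0.09, adjusted p = 9.09e-16). Erbb4, the neuregulin receptor of interneurons, stood at 2.05, 2.01 and 1.99 against 612, 506 and 646 CPM, a 291-fold difference. The groups did not overlap and the fibroblast values were nearly equal. Cxcr4, the receptor by which interneurons follow the chemokine Cxcl12, stood at 2.23, 2.50 and 2.63 against 106, 100 and 121 CPM, a 44.1-fold difference. Its ligand had the reverse pattern. Cxcl12 stood at 502, 521 and 533 CPM in the fibroblasts and at 3.52, 1.86 and 4.57 CPM in the interneurons (log2 difference -7.29, SE 0.19, adjusted p = 6.16e-13). The second receptor Ackr3 was present in both, at 34.1, 32.6 and 36.4 against 93.8, 79.1 and 113 CPM, a 2.77-fold difference.

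The neuropilins, which bind semaphorins, were lower in the interneurons, Nrp2 at 363, 395 and 372 CPM in the fibroblasts against 57.0, 51.5 and 72.9 CPM (log2 difference -2.64, SE 0.10) and Nrp1 by -1.87. Their partner plexins were higher, Plxna4 by 6.17 and Plxna2 by 4.37. Met, the hepatocyte growth factor receptor, was lower at 83.8, 88.9 and 84.2 CPM against 8.71, 6.97 and 10.8 CPM, and its ligand gene Hgf was lower too (-7.71). The slit receptors Robo1 and Robo2 were higher by 1.61 and 2.07.

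Genes of GABA receptors, their anchors and chloride transport were higher in 16 of 19 cases at E18.5 and lower in 3, with a median of 3.8. The chloride exporter Slc12a5, which makes GABA inhibitory in mature neurons, was 19.1-fold higher at 22.8, 25.3 and 15.2 CPM. The importer Slc12a2, which makes GABA depolarising in young neurons, was lower than in fibroblasts, at 106, 111 and 108 against 64.8, 61.1 and 73.9 CPM (log2 difference -0.70, SE 0.07). Per kilobase the interneurons held 10.2 CPM per kb of Slc12a2 and 2.94 of Slc12a5. The lower subunits Gabrb1 (-3.04) and Gabra4 (-0.93) stood under 5 CPM in both groups.

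Glutamate receptor and scaffold genes were higher in 23 of 24 cases, 14 of them at least 16-fold, with a median of 5.40, or 5.02 with bounds. Gria2, the AMPA receptor subunit that limits calcium entry, stood at 6.92, 5.43 and 5.43 CPM in the fibroblasts and at 436, 410.2 and 430.2 CPM in the interneurons. The kainate receptor gene Grik3 stood at 2.01, 1.74 and 1.30 against 609, 589.8 and 616 CPM, a log2 difference of 8.50. Gria3 was the exception. It stood at 167, 179 and 184 CPM in the fibroblasts and at 9.93, 9.25 and 8.75 CPM in the interneurons, 18.9-fold lower (log2 difference -4.24, SE 0.07, adjusted p = 1.15e-14), so that AMPA receptor subunits of the same family had opposite signs with no overlap between libraries. Among NMDA receptor subunits Grin2b differed by 4.72, and Grin2a, which takes over later in development, reached only 0.281, 0.318 and 0.226 CPM, at least 8.33-fold over fibroblasts. Grm5, a metabotropic receptor, was high but uneven, at 60.6, 80.1 and 25 CPM.

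Vesicle and active zone genes were higher in 23 of 27 cases, with a median of 4.92. Snap25, a part of the fusion machinery, stood at 0.256, 0.296 and 0.0604 CPM in the fibroblasts and at 106, 97.8 and 103 CPM in the interneurons, a 507-fold difference. Cplx1, which clamps fusion, had 3 counts in the fibroblasts and 81.8, 88.8 and 67.6 CPM in the interneurons (ratio 2413, 95% interval 825 to 11702). Bsn, a scaffold of the active zone, differed by 6.99. Among members that did not pass were Sv2b (adjusted p = 0.571) and Doc2b (adjusted p = 0.294), both under 4 CPM in every library. Dnm1, usually taken as the neuronal dynamin, was lower in the interneurons, at 107, 107 and 100.1 against 75.8, 85.8 and 53.1 CPM (log2 difference -0.55, SE 0.13, adjusted p = 0.00118).

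Adhesion genes that organise synapses were higher in 25 of 26 cases. Lrrtm2 had 1 count in the fibroblasts and 38.7, 38.5 and 39.6 CPM in the interneurons (ratio 3536, 95% interval 634 to 139680.1). Nrxn3, a presynaptic neurexin, stood at 3.22, 2.53 and 2.6 against 617, 611 and 585 CPM. Cdh13 was the member that did not pass, at 24.5, 25.4 and 28 against 25.2, 31.8 and 11.1 CPM (log2 difference -0.19, SE 0.26, adjusted p = 0.488). Without GAD67 replicate 8, 24 members were called higher and 1 lower. Voltage-gated channels were higher in 25 of 29 cases with a median of 4.71. Scn3a, the sodium channel of embryonic neurons, stood at 0.915, 1.64 and 0.876 CPM in the fibroblasts and 207, 188 and 222 CPM in the interneurons. Scn1a, the channel on which mature interneuron firing depends, reached 45.1, 40.3 and 44.9 CPM. Kcnc1, whose channel lets parvalbumin cells fire fast, was already at 143, 131 and 136 CPM against under 1 CPM in the fibroblasts. Cacna2d1 (-3.31), Kcna1 (-2.24) and Cacna1g (-1.05) were lower.

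Genes of the cytoskeleton of growing neurites had the highest summed level of the 53 lists in the interneurons. All 24 were higher, with a median of 4.52 and summed levels of 1916 to 2022 CPM in the fibroblasts against 24584 to 25133 CPM in the interneurons. Tubb3, the neuronal tubulin, stood at 4.58, 4.28 and 4.02 against 1908, 1912 and 1889.7 CPM (log2 difference 8.80, SE 0.08, adjusted p = 3.83e-16). Tuba1a was 11.4-fold higher from a high fibroblast level, and per kilobase it went from 203 to 2309.9 CPM per kb, while Tubb3 reached 1019 CPM per kb. Stmn3 stood at 0.146, 0.0987 and 0.0906 against 309.8, 317 and 294 CPM, and the internexin gene Ina differed by 10.46. The neurofilament gene Nefl, which comes up later, reached only 6.15, 6.63 and 7.17 CPM.

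RNA-binding proteins of neurons were higher in 18 of 20 cases with a median of 6.00. Elavl3, which stabilises neuronal messages, stood at 0.256, 0.362 and 0.423 CPM in the fibroblasts and at 1105, 1081 and 1069 CPM in the interneurons, a 3052-fold difference (adjusted p = 3.83e-16). Rbfox3, the antigen NeuN, had 2 counts in the fibroblasts and 57.2, 64.1 and 48.4 CPM in the interneurons (ratio 2578, 95% interval 713 to 21291). Srrm4, which includes neuronal microexons, stood at 5.42, 4.87 and 4.23 against 263, 235 and 283 CPM. The lower members were Mbnl2, at 393, 399 and 389.6 against 25.7, 21.6 and 27.4 CPM (log2 difference -3.98, SE 0.08), and Igf2bp1 (-2.74).

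REST itself was lower. Rest stood at 115, 129 and 111 CPM in the fibroblasts and at 13.7, 11.7 and 19 CPM in the interneurons (log2 difference -3.0, SE 0.18, adjusted p = 2.35e-09), 8.01-fold lower, and the libraries did not overlap. The list of REST and its corepressors had 6 of 15 members higher, 6 lower (Rest among them) and 3 not passing, with a median of 0.04, shares close to those of all genes tested. Rcor2 was 34.8, 33.4 and 34.7 against 175, 166 and 192 CPM, and the demethylase Kdm1a was higher by 1.33, whereas Rcor1 was lower by -0.96 and the small phosphatases Ctdsp1 (-2.63), Ctdsp2 (-1.79) and Ctdspl (-1.71), which act with REST outside neurons, were lower together. Hdac1 did not pass (log2 difference -0.02, adjusted p = 0.795).

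Factors of newborn neurons were higher in 23 of 26 measured cases with a median of 7.46, or 6.97 with bounds. Scrt2, a repressor that starts migration, had 3 counts in the fibroblasts and 189.7, 175 and 204 CPM in the interneurons (ratio 5728, 95% interval 1959.9 to 27780.0). This was the highest ratio among genes of at least 50 CPM that were higher in the interneurons. Myt1l, which holds down genes of other lineages in neurons, stood at 0.586, 0.460 and 0.845 against 358, 358 and 354 CPM. Sox2, better known from stem cells, stood at 0.988, 1.38 and 1.03 against 415, 415 and 442 CPM, and Sox1 differed by 10.40. Sox4 was abundant in both, at 313, 319 and 334 against 3078, 3209 and 2935 CPM. Ebf3 was lower (-5.85), while Zfhx4 (adjusted p = 0.381) and Tox (adjusted p = 0.0590) did not pass.

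In the Notch pathway 10 of 24 members were higher and 13 lower, close to the shares of all genes, and members of the same role went both ways. The ligands Dll1 (4.31), Dll3 (5.83), Dll4 (3.29) and Jag2 (3.34) were higher in the interneurons, while Jag1 was lower at 128, 136 and 127 against 8.45, 9.89 and 9.40 CPM (-3.82). Of the receptors, Notch2 (-2.11) and Notch3 (-5.34) were lower, Notch4 (3.68) was higher and Notch1 did not pass (adjusted p = 0.0578). Among target genes Hes1 stood at 63.5, 67.7 and 71.5 CPM in the fibroblasts and at 0.511, 0.689 and 0.452 CPM in the interneurons, 122-fold lower, and Hes5 was at 2 counts in the fibroblasts and 2.50, 2.73 and 2.12 CPM in the interneurons. Hes6, which opposes Hes1, was higher by 1.97. Of the Fringe enzymes Mfng (6.23) and Rfng (2.52) were higher and Lfng (-2.24) was lower. The Id genes, which block proneural factors, were lower for Id1 (-4.86), Id2 (-1.11) and Id3 (-3.98) and higher for Id4 (1.94).

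Subunits of chromatin complexes were higher in 31 of 36 cases, with a median of 2.05. Actl6b, the subunit that replaces Actl6a in the BAF complex of neurons, stood at 0.0732, 0.0987 and 0.0302 CPM in the fibroblasts and at 166, 160.2 and 173 CPM in the interneurons, 2389.7-fold higher. The progenitor subunit Actl6a was also higher, at 27.9, 27.3 and 29.6 against 57.9, 57.1 and 58.8 CPM. Shared subunits were higher too, Smarca4 by 2.02, Smarcc2 by 3.19 and Arid1a by 2.03. Chd5, a neuronal remodeller, differed by 6.67, and the methylcytosine oxidases Tet1, Tet2 and Tet3 by 2.17, 2.07 and 2.72. Ss18 (-1.30) and Phf10 (-0.77), both of progenitor or general complexes, were lower.

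Related genes were set side by side in 56 pairs, with 1 member labelled broad and the other neuronal. The labels are approximate: not every member labelled neuronal is specific to neurons, nor is every broad one widely used. In 27 pairs the member labelled neuronal was higher and the broad one lower in the interneurons. Both were higher in 19 pairs and both lower in 7, and in 3 at least 1 member was not called. In none was the direction the reverse. The pairs were chosen for their known roles, so the count describes them. For tubulins, Tubb6 stood at -7.73 and Tubb3 at 8.80 on the log2 scale of the difference. Among G protein gamma subunits Gng12 was lower by -6.70 and Gng3 higher by 9.41. For kinases, Camk2d stood at -3.41 and Camk2b at 5.75. Of the splicing repressors, Ptbp1 was lower (-1.73) and Ptbp2 higher (3.50), and of the lamins Lmna was lower (-6.46) and Lmnb1 higher (2.16). Lactate dehydrogenase followed, with Ldha at -3.45 and Ldhb at 1.65. Pairs against this order of size included Mbnl1 (-2.52) and Mbnl2 (-3.98), Dnm2 (-0.04, not called) and Dnm1 (-0.55), and Ezh2 (2.27) and Ezh1 (0.10, not called). Eno2, the enolase often used as a neuronal marker, was lower in the interneurons (-0.95), as was the glucose transporter Slc2a3 (-1.07).

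**Figure D2:**
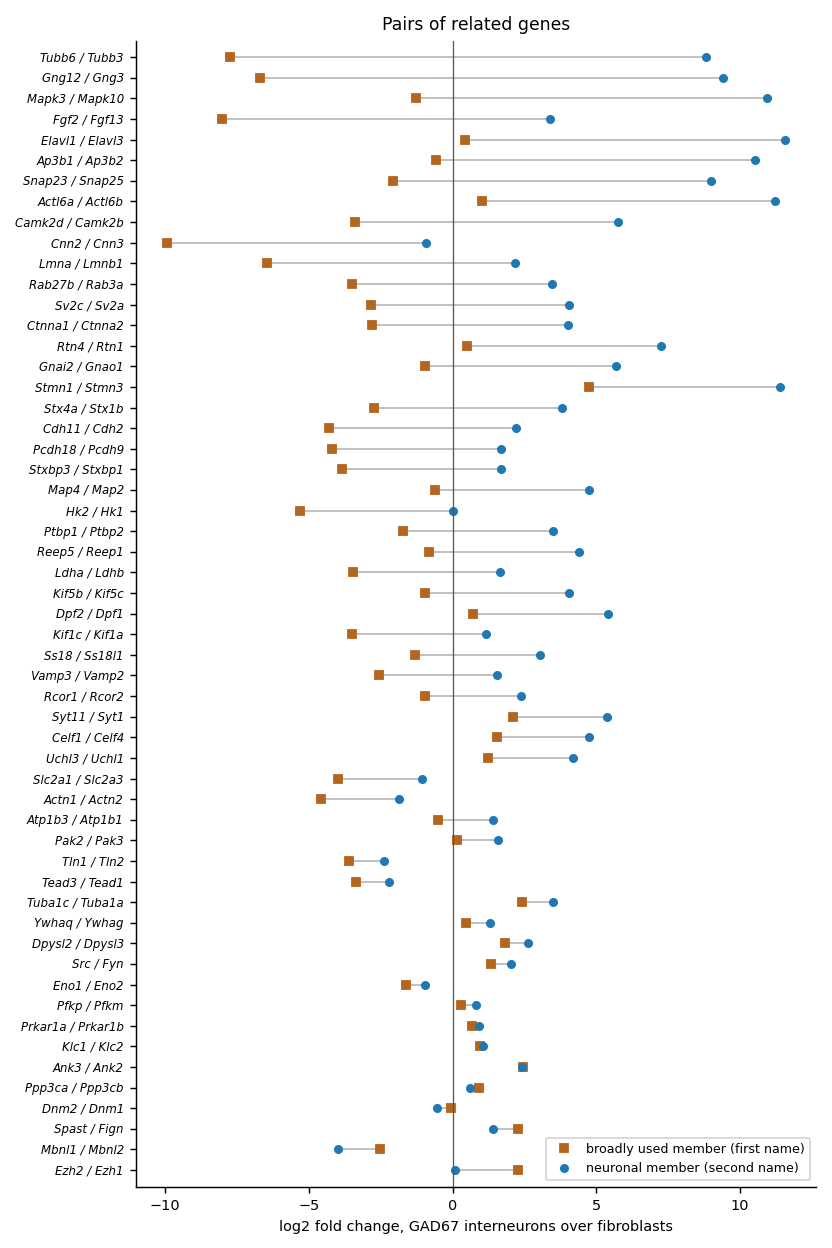
Log2 fold change of interneurons over fibroblasts for both members of 55 of the 56 pairs of related genes. Squares are the member labelled broad (first name) and circles the member labelled neuronal (second name). Pairs are ordered by the gap between them. In 26 of the pairs drawn the square lies left and the circle right of 0 with both called.

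On the fibroblast side, transcription factors of mesenchyme were lower in 37 of 39 measured cases, 33 at least 16-fold, with a median of -7.66, or -7.51 with bounds. Twist1, which specifies mesenchyme, stood at 157, 174 and 172 CPM in the fibroblasts and at 0.0511, 0.133 and 0.0565 CPM in the interneurons (log2 difference -10.97, SE 0.15, adjusted p = 1.67e-15). Prrx1, a limb and body wall factor, stood at 749, 783 and 777 against 1.61, 1.14 and 2.6 CPM, and was the list's highest level. Hand2 stood at 20.4, 20.5 and 20.5 CPM and had no count in the interneurons, at least 765-fold lower (adjusted p = 1.05e-11). Every fibroblast library was above every interneuron library for these. Shox2 had 2 counts in the interneurons (ratio 2906, 95% interval 804 to 24002). The members that were higher were Foxp4 (2.07) and Sox9 (1.76), and Sox9 also marks neural progenitors and glia. Of the Hedgehog effectors, Gli3 (-4.48) and Gli2 (-3.64) were lower, and Gli1 was under 1 CPM throughout.

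All 37 measured Hox genes were lower, each at least 16-fold also with bounds, with a median of -9.10, or -8.74 with bounds. Their sum was 579 to 597 CPM in the fibroblasts and 0.790 to 1.99 CPM in the interneurons. Hoxa10 stood at 67.8, 68.6 and 69.9 against 0.0255, 0.133 and 0 CPM, a 1207-fold difference. Hoxc8 had 2 counts in the interneurons (ratio 2497, 95% interval 691 to 20628). The posterior genes Hoxa13 at 12.9, 13.9 and 16.7 CPM and Hoxd11 at 19.6, 18.6 and 15.5 CPM had no count in the interneurons, and were at least 544-fold and at least 670.4-fold lower. Hoxd13, used at the ends of the limbs, stood at 45.2, 50.5 and 50.5 CPM. Overlapping transcripts on both strands of the clusters make single Hox values uncertain without the strand setting.

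Collagen made up 8.09% to 8.65% of all counts in the fibroblasts and 0.0354% to 0.0379% in the interneurons. Of 30 chains, 29 were lower and 25 at least 16-fold, with a median of -7.15. Col1a1, a chain of the main fibrillar collagen, stood at 36462, 40431 and 39694 CPM against 85.4, 81.7 and 77.4 CPM (log2 difference -8.90, SE 0.15, adjusted p = 1e-14). Its partner chain Col1a2 stood at 22683, 24831 and 24865 against 9.70, 9.57 and 9.32 CPM (log2 difference -11.31, SE 0.28, adjusted p = 3.12e-13). Both were high in all fibroblast libraries, but per kilobase the interneurons held 12.4 of Col1a1 and 0.785 CPM per kb of Col1a2, so the paired chains were not in the same proportion there. The vessel wall chains Col4a1 (-5.05) and Col4a2 (-5.42) kept more counts in the interneurons, Col4a1 at 49.0, 34.4 and 61.3 CPM, highest in replicate 9. Col9a3 was the chain of the list that was higher, at 11.7, 10 and 9.48 against 56.5, 54.6 and 51.8 CPM, and Col25a1, which neurons make, was lower (-1.72).

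The machinery that folds and crosslinks collagen was lower in all 28 cases, with a median of -5.22. Lox, which crosslinks the fibrils, stood at 4627, 4919 and 5023 CPM against 1.61, 1.51 and 1.92 CPM, 2892-fold lower. Serpinh1, the collagen chaperone, stood at 4431, 4654 and 4989 against 11.5, 8.40 and 15.5 CPM, 399-fold lower. Members that serve all secreted proteins were closer to each other, with Mia3 lower by -0.74 and Ppib by -1.99.

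Glycoproteins and proteoglycans of the matrix divided, with 30 of 37 lower, 7 higher and a median of -6.27. Lum, lumican, stood at 393, 416 and 447 CPM in the fibroblasts and 0.0511, 0.0795 and 0.0565 CPM in the interneurons (log2 difference -12.63, SE 0.13, adjusted p = 3.83e-16), the most negative difference among genes of at least 50 CPM. Fibronectin, Fn1, was 502-fold lower, Sparc 363-fold and Postn 364-fold. The higher members are all known from brain matrix. Ncan, neurocan, stood at 0.439, 0.493 and 0.513 CPM against 766, 704 and 792 CPM, 1546-fold higher (log2 difference 10.59, SE 0.11). Tnr (7.99), Bcan (7.24), Spock1 (3.59), Spock2 (2.95) and Reln (2.73) were higher as well, and Vcan, versican, was abundant in both at 292, 343 and 285 against 499, 435 and 460.2 CPM (log2 difference 0.60). Hapln1, which links such proteoglycans to hyaluronan, was lower (-4.70). Among proteases and inhibitors 24 of 28 were lower, while Mmp24 (8.67), Adam22 (2.88) and Mmp16 (0.74) were higher.

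Integrin and focal adhesion genes were lower in 34 of 35 cases with a median of -5.32. Itga11, a collagen receptor, stood at 413, 448 and 438 CPM against 0.306, 0.212 and 0.508 CPM. Itgb1, the shared beta subunit, stood at 2299, 2351 and 2495 against 102, 105 and 102 CPM, lower in every interneuron library but still abundant there. The caveola genes Cav1 (-7.59) and Cavin1 (-8.49) were lower, each with its highest interneuron level in GAD67 replicate 9. Itgb8, which activates TGF-beta on neural cells, was the member that was higher, at 16.5, 18.7 and 14.9 against 48.4, 42.8 and 53.2 CPM.

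Contractile genes and targets of YAP, the coactivator by which stretched cells drive transcription through TEAD factors, were lower in all 33 cases, 22 at least 16-fold, with a median of -6.24 and sums of 23065 to 24258 CPM against 1421 to 1565 CPM. Acta2, smooth muscle actin, stood at 4493, 4643 and 4991 CPM in the fibroblasts and at 1.38, 1.19 and 1.24 CPM in the interneurons, 3689-fold lower. Ankrd1, a classical YAP target, stood at 41.4, 42.1 and 41.5 CPM with 1 count in the interneurons (ratio 4682, 95% interval 839.8 to 184969.8, adjusted p = 5.83e-13). The targets Ccn1 at 1213, 1291 and 1346 against 4.16, 5.62 and 2.99 CPM and Ccn2 at 663, 710.4 and 742 against 1.58, 1.22 and 1.24 CPM were 300.2-fold and 519.9-fold lower. Yap1 itself stood at 304, 313 and 319 against 2.27, 1.64 and 2.57 CPM, 144-fold lower, and its relative Wwtr1 was lower by -6.24. Among the partners that carry YAP to DNA, Tead1 (-2.21), Tead2 (-3.30) and Tead3 (-3.37) differed less. Tead4, whose fibroblast mean of 13.1 CPM was the lowest of the list, was called lower too. The factors of the other arm of contractile control also differed by less. Srf stood at 149, 149.8 and 148 against 87.6, 83.7 and 83.3 CPM (log2 difference -0.81, SE 0.05), and its coactivators Mrtfa and Mrtfb by -0.67 and -0.61. Nonmuscle myosins split in size, with Myh9 lower by -5.98 and Myh10, the form used in neurons, by -0.93.

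Promoters of the contractile and YAP list were read for the letters of the binding sites of these factors, since its members moved together. The sequences are RefSeq promoters on build GRCm38.p6, and 28 of the 33 members matched an entry; Actg2, Tagln, Ccn2, Tead1 and Tead4 did not. In the window from 250 bases before to 50 bases after the annotated start, the TEAD core CATTCC or its complement GGAATG was present for 17 of 28 members (60.7%), against 4481 of all 27025 promoters (16.6%) and 3 of 24 collagen chain promoters (12.5%). The other lists searched had entries for a smaller part of their members, so only counts are given. The core was present for 4 of 20 newborn neuron factors and 3 of 19 vesicle genes. For ventral forebrain factors it was 2 of 8 and for GABA genes 2 of 6. The CArG box of SRF was present for 4 of 28 (14.3%), against 488 of all promoters (1.81%). It was present for 2 of 20 newborn neuron factors, 0 of 24 collagen chains and 0 of 19 vesicle genes. For ventral forebrain factors it was 0 of 8 and for GABA genes 0 of 6. The contractile and YAP list holds genes picked as known targets, so these shares describe it, and a match of letters is neither a bound site nor a cause. Shown are the 250 bases before the start of 4 members, the first pair with the TEAD core in capitals and the second pair with the CArG box in capitals, each read 5′ to 3′ on the strand of its gene.
Ankrd1: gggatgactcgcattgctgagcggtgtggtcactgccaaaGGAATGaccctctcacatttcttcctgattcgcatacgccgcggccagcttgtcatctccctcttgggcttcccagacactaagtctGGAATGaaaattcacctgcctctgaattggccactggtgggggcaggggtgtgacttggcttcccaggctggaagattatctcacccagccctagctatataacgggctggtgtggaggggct
Ccn1: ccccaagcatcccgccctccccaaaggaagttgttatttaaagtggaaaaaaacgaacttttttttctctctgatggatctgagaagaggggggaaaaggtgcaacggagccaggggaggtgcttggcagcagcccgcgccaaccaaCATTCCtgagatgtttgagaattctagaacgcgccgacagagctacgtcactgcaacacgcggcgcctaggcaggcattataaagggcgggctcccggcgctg
Myl9: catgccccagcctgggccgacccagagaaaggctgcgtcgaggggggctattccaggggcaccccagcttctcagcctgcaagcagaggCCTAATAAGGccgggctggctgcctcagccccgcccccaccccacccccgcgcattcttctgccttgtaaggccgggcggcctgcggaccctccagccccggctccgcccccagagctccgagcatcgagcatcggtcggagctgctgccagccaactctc
Srf: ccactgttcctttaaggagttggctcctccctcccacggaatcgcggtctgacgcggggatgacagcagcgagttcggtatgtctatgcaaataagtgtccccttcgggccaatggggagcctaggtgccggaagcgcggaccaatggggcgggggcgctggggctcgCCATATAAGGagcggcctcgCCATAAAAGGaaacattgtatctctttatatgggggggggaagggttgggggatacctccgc
In the Ankrd1 promoter (chr19:36119845-36120094, minus strand) the core begins 210 and 123 bases before the start, and in that of Ccn1 (chr3:145649986-145650235, minus strand) 103 bases before it. The box lies 161 bases before the start of Myl9 (chr2:156775214-156775463, plus strand), which encodes a myosin light chain and stood at 456, 467 and 502 against 0.817, 0.530 and 1.61 CPM. Srf (chr17:46556163-46556412, minus strand) carries 2 boxes, at 82 and 62 bases before its start. The 4 members of the contractile and YAP list with the CArG box differed in size, with log2 differences of -0.81 for Srf, -2.54 for Myl6, -8.93 for Myl9 and -9.92 for Cnn2.

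Growth factor genes were lower in 29 of 41 measured cases and higher in 8, with a median of -2.72. Igf2, the imprinted fetal growth factor, stood at 15022, 16098 and 16758 CPM in the fibroblasts and at 14.0, 9.12 and 17.1 CPM in the interneurons, 1189-fold lower (log2 difference -10.22, SE 0.27). Its receptor Igf1r did not pass (log2 difference -0.05, adjusted p = 0.675). Pdgfra, the receptor that marks mesenchyme, stood at 273, 281 and 275 against 3.14, 3.63 and 1.67 CPM. Bdnf, known as a factor of neurons, was a fibroblast gene here, at 36.1, 35.4 and 36.3 CPM against 0.102, 0.0530 and 0.508 CPM, 165-fold lower in the interneurons, while its receptor gene Ntrk2 was higher (4.07). Among the higher members were Igfbpl1, at 1.21, 1.05 and 1.06 against 777, 803 and 716 CPM, and the intracellular Fgf13 (3.39) and Fgf14 (6.05).

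No member of the TGF-beta and BMP pathway was higher, and 29 of 32 were lower with a median of -5.19. Bmp4 stood at 138, 146 and 148 CPM against 0.179, 0.106 and 0.339 CPM. Tgfbr2, the ligand-binding receptor, was lower by -7.20, but the signalling receptors Tgfbr1 (adjusted p = 0.199), Acvr1 (adjusted p = 0.427) and Bmpr2 (adjusted p = 0.750) did not pass, with Tgfbr1 at 84.4, 89.5 and 87.9 against 81.7, 80.0 and 86.6 CPM. With library size alone as the scale, 3 members were called higher. Secreted antagonists were lower together, among them Fst (-8.25), Grem1 (-5.33) and Nog (-4.30).

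In the Wnt pathway 30 of 35 members were lower and 4 higher. Wnt7a stood at 0.769, 0.888 and 0.483 CPM in the fibroblasts and at 98.7, 98.2 and 102 CPM in the interneurons, 141-fold higher, whereas Wnt5a (-0.95), Wnt4 (-8.63) and Wnt11 (-6.98) were lower. Fzd3, the receptor that guides axons, was higher at 81.7, 56.7 and 92.3 CPM (4.47), and the other listed Frizzled genes, Fzd1 (-3.79), Fzd2 (-2.71), Fzd5 (-5.44), Fzd7 (-5.80) and Fzd8 (-3.94), were lower. The feedback gene Axin2 was higher (1.25), while Lef1 (-1.65), Tcf7l1 (-5.77) and Tcf7l2 (-6.22) were lower.

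All 29 measured chemokine, cytokine and complement genes were lower with a median of -7.61, or -7.29 with bounds, and so were all 30 interferon and antigen presentation genes with a median of -6.99, or -6.67 with bounds. Ccl7, a chemokine for monocytes, stood at 14.9, 14.7 and 15.5 CPM with no count in the interneurons, at least 563-fold lower. Csf1, the growth factor of macrophages, was 195-fold lower. B2m, the light chain of class I molecules, stood at 694, 747 and 779.8 against 1.79, 1.64 and 2.77 CPM, 360.0-fold lower (adjusted p = 5.29e-15). Bst2, an antiviral tether, stood at 297, 315 and 324 against 0.153, 0.106 and 0.254 CPM. Fewer orders of size separated the upstream factors, with Stat2 lower by -1.82 and Irf9 by -1.10. Markers of macrophages were higher in the fibroblast libraries as well: 19 of 20 listed were lower in the interneurons, with sums of 767 to 831 CPM against 8.14 to 10.4 CPM. Lyz2 stood at 216, 220.0 and 239 CPM and Adgre1 at 30.3, 30.3 and 32.7 CPM in the fibroblasts, and no defining marker was at 0 there. The part of macrophages in the immune results was not tested.

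Cell cycle genes were lower in 28 of 35 cases, with a median of -1.65, far from the size of the lists above. Cdk1 stood at 73.9, 75.9 and 83.1 CPM in the fibroblasts and at 10.4, 12.4 and 9.63 CPM in the interneurons, and Top2a at 279, 285 and 279.7 against 88.1, 92.3 and 80.2 CPM. Mki67, the proliferation antigen, differed by only -0.85 (SE 0.20, adjusted p = 0.00127), at 140.4, 143 and 113 against 76.8, 80.7 and 62.4 CPM. Among cyclin D genes Ccnd1 was lower by -5.72 and Ccnd3 by -5.71. Ccnd2, at 822, 859.6 and 808 against 732, 807 and 606 CPM, differed by -0.21 (adjusted p = 0.0358), by 0.01 with library size alone as the scale, and was not called with the 6 libraries alone or without any one of MEF replicates 1, 2 and 3 or GAD67 replicates 7 and 9 (adjusted p from 0.0554 to 0.203 with 1 of these left out). Cdk4, a partner of these cyclins, was higher by 0.54. The inhibitors were mostly lower too, with 21 of 25 members of that list. Cdkn1a, the main target of p53, stood at 326, 337 and 354 against 5.85, 8.77 and 5.14 CPM, and Cdkn2a, which builds up in cultured cells, had 1 count in the interneurons against 12.2, 10.6 and 11.8 CPM (ratio 1293, 95% interval 232 to 51125). Cdkn1b, which holds newborn neurons out of the cycle, was higher by 1.09, and Trp53 did not pass (adjusted p = 0.652).

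Imprinted and embryonic genes went both ways, 17 of 27 lower and 8 higher. H19 stood at 11582, 12205 and 12871 CPM against 14.9, 13.0 and 17.0 CPM, 817-fold lower, beside the neighbouring Igf2. Hmga2 was 513-fold lower, and Grb10, Plagl1 and Dlk1 were lower by -5.79, -5.72 and -6.55. Nnat, neuronatin, stood at 12.4, 12.3 and 13.0 against 3081, 3065 and 2989 CPM, 243-fold higher, and Magel2 (6.68), Usp29 (3.55), Peg10 (1.87) and Ndn (1.74) were higher. Meg3 did not pass (log2 difference 0.14, adjusted p = 0.408), at 2748, 1705 and 1647 against 2243, 2196 and 2261 CPM, and was called higher without MEF replicate 1 (log2 difference 0.42, adjusted p = 3.58e-05).

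Immediate early genes were lower in 20 of 27 cases and higher in 5. Fos was uneven in the interneurons, at 125, 179.6 and 33.8 CPM against 33.1, 37.0 and 34.9 CPM in the fibroblasts (log2 difference 1.69, SE 0.40, adjusted p = 0.00155), and GAD67 replicate 9 lay within the fibroblast range. Npas4, induced by calcium in neurons, was 6.08-fold higher. Junb (-3.76), Klf4 (-4.80) and Atf3 (-6.88) were lower.

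Glycolysis genes were lower in 19 of 28 cases with a median of -1.46, among them Aldoa at 1102, 1166 and 1240.2 against 80.3, 72.9 and 80.4 CPM and Slc16a3, the lactate exporter, by -5.85. Nuclear genes of the respiratory chain had a median of -0.24 with 6 of 26 higher and 13 lower, none by 4-fold, and only 7 were lower with library size alone. In cholesterol synthesis and transport 21 of 26 were lower, whereas Lrp8, a receptor for reelin, was higher at 38.4, 40.4 and 37.8 against 465, 459 and 444 CPM. Lysosomal genes were lower in 24 of 28 cases with a median of -3.26, with Cd63 at -6.86 and Ctsb at -3.69, and Atp6v1g2, the pump subunit of neurons, was higher by 3.56.

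**Figure D3:**
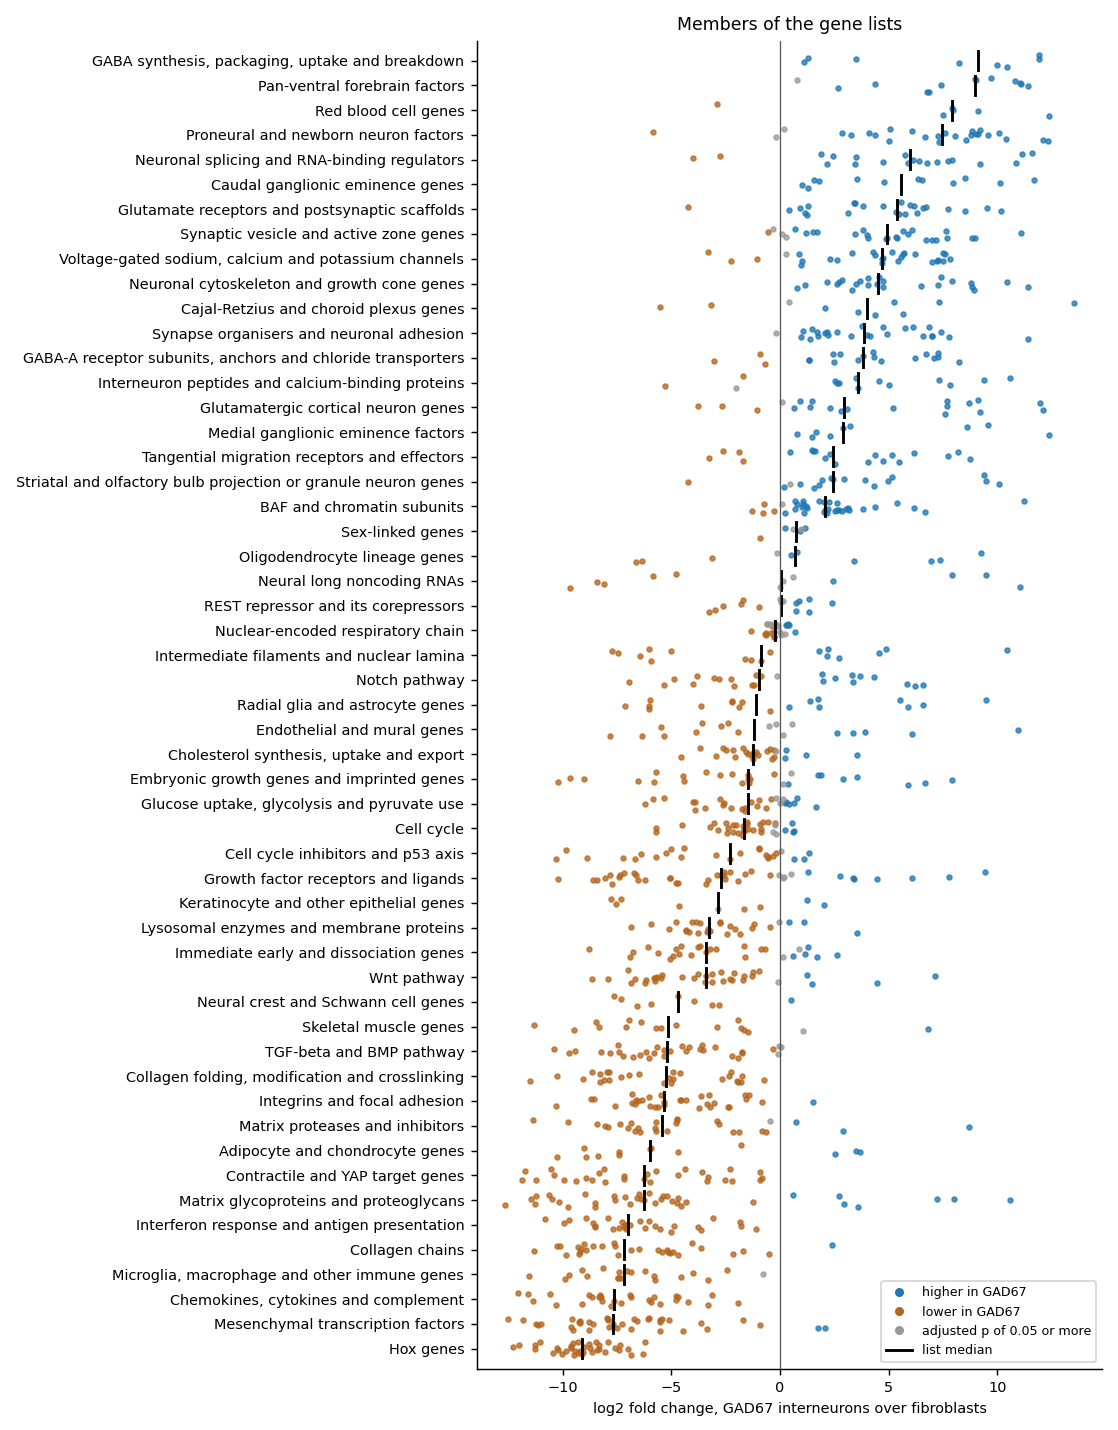
Log2 fold change of interneurons over fibroblasts for each measured member of the 53 gene lists, ordered by list median (black bar); blue members were called higher, orange lower, grey did not pass. Genes with 0 counts in a group are drawn at their fitted value, which is no bound. All 37 Hox genes lie left of 0 and all 8 GABA genes, Gad1 of the reporter sort among them, right of it. Respiratory chain genes gather around 0.

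Genes that were strongly higher in the interneurons were longer on the genome than other genes. Protein-coding genes at least 16-fold higher had a median span of 36.7 kb against 22.5 kb for those at least 16-fold lower and 23.8 kb for all tested. Of the higher class 180 of 1036 (17.4%) spanned over 200 kb, against 4.74% of the lower class and 5.92% of all. Adarb2, Rbfox3, Erbb4 and Nrxn3 are among them. Long noncoding RNAs made up 9.18% of the genes at least 4-fold higher, 3.46% of those at least 4-fold lower and 4.27% of all tested. These shares are descriptions without a test.

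**Figure D4:**
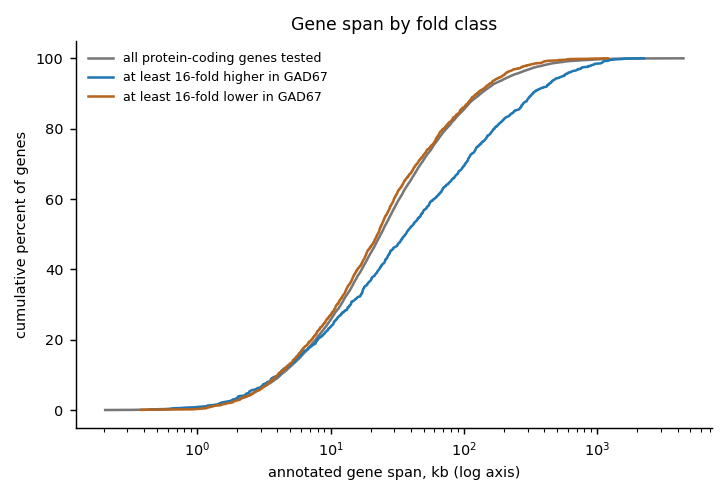
Cumulative percent of protein-coding genes by annotated span in kb (log axis) for all genes tested, those at least 16-fold higher and those at least 16-fold lower in the interneurons. The curve of the higher class lies to the right of the others over most of its course, with a median of 36.7 kb against 22.5 kb for the lower class and 23.8 kb for all.

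Markers of cells other than interneurons were read in both groups. Of 20 genes of glutamatergic cortical neurons 16 were higher, with sums of 106 to 110.2 CPM in the fibroblasts and 918 to 940.5 CPM in the interneurons. Most of that sum came from Mpped1, Cux1 and Lmo3, whereas the defining factors stayed low: Neurod2 at 14.6, 13.2 and 18.4 CPM, Neurod6 at 12.4, 9.25 and 21.2 CPM, Tbr1 at 7.20, 6.26 and 8.64 CPM and Emx1 at 1.56, 1.48 and 1.33 CPM. The vesicular glutamate transporter Slc17a7 stood at 0.383, 0.345 and 0.508 CPM, lower than in the fibroblasts (-1.06). Per kilobase Neurod6 reached 6.63 and Emx1 0.667 CPM per kb beside 275 for Dlx1. Radial glia and astrocyte genes summed to 6988 to 7982 CPM in the fibroblasts and to 647 to 664 CPM in the interneurons, with 8 of 18 higher. Much of the fibroblast sum was Vim, vimentin, which mesenchyme also makes, at 4333, 4674 and 5059 CPM. The part of these cells in the results was not tested.

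Vessel, blood and choroid plexus genes moved between the interneuron libraries. The list of endothelial and mural genes summed to 723 to 773 CPM in the fibroblasts and to 30.9 to 107 CPM in the interneurons, with 5 of 18 higher. Cldn5, which seals brain endothelium, had no count in the fibroblasts and 5.69, 4.13 and 11.3 CPM in the interneurons. Kdr stood at 11.2, 13.1 and 11.1 CPM in the fibroblasts and at 8.22, 2.84 and 14.0 CPM in the interneurons (log2 difference -0.51, adjusted p = 0.260) and was called lower without GAD67 replicate 9 (log2 difference -1.07, adjusted p = 0.00681). The pericyte gene Rgs5 stood at 11.9, 11.5 and 10.9 against 11.8, 4.40 and 21.5 CPM (log2 difference 0.13, adjusted p = 0.750) and was called higher without GAD67 replicate 8 (log2 difference 0.54, adjusted p = 0.0171). Red cell genes summed to at most 0.855 CPM in the fibroblasts and to 18.8 to 48.2 CPM in the interneurons, led by Hbb-bs at 16.9, 11.2 and 27.9 CPM, a gene with near-identical copies. All of these were highest in replicate 9. Ttr, the product of choroid plexus, was at 45.7, 59.2 and 20.2 CPM with no count in fibroblasts, and was lowest in replicate 9. The part of vessels, blood and choroid plexus in the results was not tested.

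**Figure D5:**
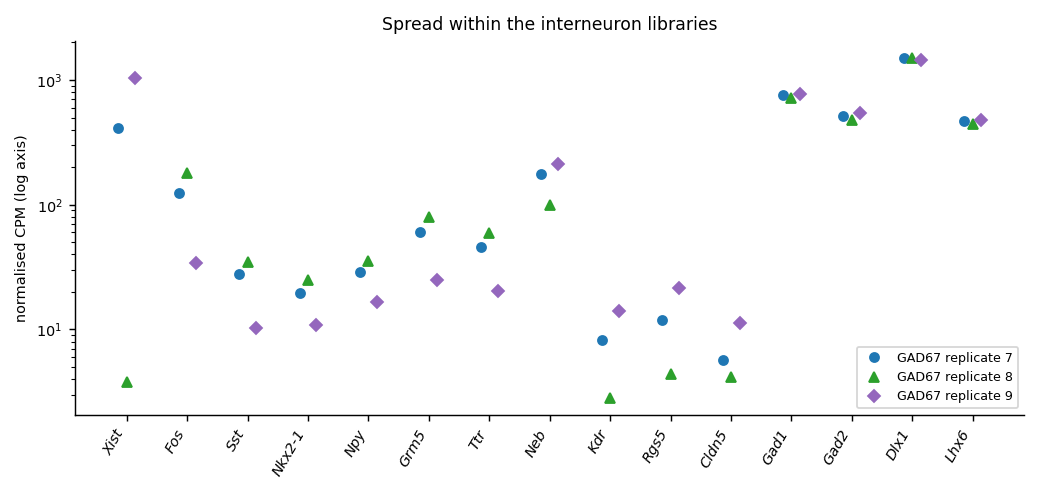
Normalised CPM on a log axis of 15 genes in GAD67 replicates 7, 8 and 9. Sst, Nkx2-1, Npy, Fos, Grm5 and Ttr are lowest in replicate 9, the vessel genes Kdr, Rgs5 and Cldn5 are highest in it, and Gad1, Gad2, Dlx1 and Lhx6 lie close together.

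Other lineages were found mainly in the fibroblasts. Skeletal muscle genes were lower in 16 of 18 measured cases, with Tnnt2 at 9.37, 8.88 and 8.73 CPM and Myod1 at 1.24, 1.25 and 1.21 CPM, both at 0 counts in the interneurons. Neb, the giant thin-filament protein of muscle, was the exception. It stood at 1.68, 1.71 and 1.06 CPM in the fibroblasts and at 177, 98.9 and 213 CPM in the interneurons, 111-fold higher (log2 difference 6.79, SE 0.30, adjusted p = 1.24e-10), with no overlap. Neural crest and Schwann cell genes were lower in 8 of 9 measured cases with sums of 69.7 to 72.7 against 19.3 to 19.7 CPM. Adipocyte and chondrocyte genes summed to 692 to 768 against 52.6 to 58.2 CPM, and epithelial genes to 19.9 to 21.0 against 9.17 to 10 CPM. Oligodendrocyte lineage genes summed to 412 to 436 against 59.7 to 67.4 CPM, most of it Pdgfra in fibroblasts, while Olig2 had no count there and 2.30, 3.07 and 1.13 CPM in the interneurons.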

How the data were processed

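RNA of 3 libraries per group had been sequenced from stranded libraries, per the labels' protocols. The authors deposited whole-number read counts per gene, with no normalisation. BWA 0.7.2, featureCounts, DESeq 1.10.1 and the build mm10 are named per the submitters' processing notes, without role or order, and the strand setting of counting is not given in the sources used here.

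Counts were filtered with filterByExpr of edgeR (minimum count 10, minimum total 15), scaled by TMM and fitted in R 4.3.3 with edgeR 4.0.16 by its quasi-likelihood method. All 9 libraries of the series were fitted, so that the third group added to the estimate of spread, and GAD67 was contrasted with MEF. P-values were adjusted by Benjamini-Hochberg over the 18085 genes tested. The procedure was also run on counts simulated from fibroblast levels with 200 genes changed, far fewer than were called here. That run cannot show how the scaling and the calls behave when most genes differ. Normalised CPM are counts divided by the TMM-scaled library size. Symbols came from GENCODE vM21 and matched 35449 genes (95.23%). Alternatives were DESeq2 1.42.0, its size factors, library size alone, no filter, a mean CPM of at least 1, the 6 libraries alone, and each library left out.

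Of 1225 listed genes in 53 lists, 1209 had an entry and 1166 passed the filter; 16 were not analysed here. Summed levels of a list cover every member with an entry, including those that did not pass the filter. The members and lists were chosen with earlier results of these data known. Named were key members of each list, the members with the highest and lowest difference at a mean CPM of at least 1, members against the majority, the largest differences over all genes at a mean CPM of at least 50 in the higher group, and pairs of opposite direction. Some listed genes are not reported here.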

Additional observations from a re-analysis of the deposited data

How the results depend on the processing

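The number of genes called ran from 14155 at a mean CPM of at least 1 to 16954 with no filter on low counts, was 15190 with the 6 libraries alone and 15585 with DESeq2, and stayed between 15410 and 15949 with 1 library left out. Library size alone shifted the median log2 difference of all genes by 0.22 and the split to 8681 higher and 7093 lower, beside 7802 and 7919. Of 500 named genes tested, 13 changed call or direction under some alternative, among them Abca1, Ccnd2, Cdkn2d, Cox7a1, Dnmt3a, Kdr, Meg3, Ppargc1a, Rgs5, Slc17a6 and Xist. Ccnd2 went from a log2 difference of -0.21 to 0.01 with library size alone. The median of the 6 sex-linked genes went from 0.75 to -0.16 without GAD67 replicate 9, the lowest, and to 0.96 without replicate 8, the highest with a library left out. Over the 53 lists, 120 values moved, counts by over 1.5 times (or to or from 0) and medians by over 1 SD of the median over pairs of libraries, 37 of them with library size alone. The cause of these changes was not tested. No paired analysis was possible because the groups share no replicate numbers. The design does not separate cell type from age, sorting or culture, and genes with near-identical copies or transcripts on the opposite strand remain uncertain.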

Other observations

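Gene families outside the lists were counted by the start of their symbols, a choice made after the values were seen. Among clustered adhesion genes all 21 tested Pcdhb genes, protocadherins that give single neurons an identity on their surface, were higher in the interneurons, 12 of them at least 4-fold, with a median log2 difference of 2.13. All 8 Pou factors were higher with a median of 7.35, and so were all 5 Zic factors with a median of 2.68. Of 335 Zfp genes, zinc finger genes of mostly unknown role, 245 were higher and 62 lower with a median of 1.19, beside 43.1% higher and 43.8% lower of all genes tested.

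Families that were lower included 64 of 81 ribosomal protein genes (Rps and Rpl), with a median of -1.41 and near-identical copies that make single values uncertain. Of 17 Serpin genes, protease inhibitors, 15 were lower with a median of -6.47. Of 10 annexins (Anxa), which bind membranes with calcium, 9 were lower with a median of -7.23, and of 9 Tbx factors 8 were lower with a median of -5.44.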
